A study of Bubalus bubalis with 6 samples.

Results

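Interferon-stimulated and antigen presentation genes were followed in buffalo (Bubalus bubalis) muscle stem cells (MuSCs) as they left proliferation and formed myotubes. The list held 51 gene symbols, comprising interferon receptor chains, transcription factors of the pathway, cytosolic RNA sensors, antiviral effectors, the ISG15 system, a group of PARP proteins and the machinery that loads MHC class I molecules. Members were taken from the table of 24616 genes by symbol alone, and 45 of the 51 symbols were listed there. USP18, MX1, IFI27, BST2, GBP4 and BOLA were not among the listed symbols. The study sequenced polyadenylated RNA of MuSCs growing in growth medium (GM samples, n = 3) and of MuSCs moved to a differentiation medium, in which they fuse (DM samples, n = 3). Both groups were primary cells cultured from fetal longissimus muscle, with no allele, transgene or added interferon named for either. GM samples were kept in fetal bovine serum, and DM samples were in a medium with less serum, of horse origin, and were taken later. Medium, serum, time and myotube formation changed together, so their parts in any difference cannot be told apart. The labels do not say whether the 3 samples of a group were separate cultures or animals, and p-values then measure only the spread between these samples.

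Interferons are secreted proteins that bind receptor chains on the cell surface, activate JAK kinases and bring STAT and IRF transcription factors to a large set of target genes. Type I interferon acts in part through STAT2 and IRF9, while the response to interferon gamma includes IRF1. Targets include sensors of viral RNA, proteins that restrict viral RNA or translation, and the immunoproteasome subunits, TAP transporter and class I molecules that show peptides to T cells. Muscle fibers normally carry little class I on their surface, and its increase is known from inflamed muscle.

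Gene counts ranged from 35615864 to 40305237 per sample. A gene was tested with edgeR's quasi-likelihood test when it had at least 10 counts over the 6 samples, and was called at an absolute log2 fold change (DM over GM) above 1 with an adjusted p-value under 0.05. Of 15576 tested genes, 2330 were called higher in DM samples, which is 15.0% of them, and 1606 were called lower, which is 10.3%. Levels are given as CPM, counts scaled to the TMM-normalized library, or as RPKM where genes are compared with each other, since RPKM is per length. Values after ± are SD over 3 samples. The 5 listed myotube markers, MYH3, MYH8, ACTA1, TNNT3 and CKM, were all called higher in DM samples, and their summed level went from between 318 and 667 CPM in GM samples to between 3889 and 5474 CPM in DM samples. The 5 myogenic markers were mixed, with a median log2 fold change of -0.15. MYOG was called higher (1.66) and MYF5 lower (-2.70), while PAX7 (-0.92), MYOD1 (0.90) and DES (-0.15) were not called. In RNA from whole cultures, more cells of a type and more RNA per cell cannot be told apart.

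Of the 45 listed members, 42 were tested, and 22 of them (52.4%) were called higher in DM samples against 15.0% of all genes. Only ISG20 was called lower, which is 2.38% of tested members against 10.3% of all genes. Calls in either direction took 54.8% of tested members and 25.3% of all genes, and 19 members were not called. Without the minimum fold change, 36 of the 42 had an adjusted p-value under 0.05, beside 63.0% of all genes. The median log2 fold change of the tested members was 1.06, beside 0.03 for all tested genes. The fold change was above 0 in 37 members and below 0 in 5. GM and DM samples did not overlap in 35 members (83.3%, against 68.8% of all tested genes), 32 of them higher in DM samples (76.2%, against 34.5% of all tested genes) and 3 lower (against 34.3%). MX2 and RSAD2 had fewer than 10 counts in the GM samples together and so entered the test through their counts in DM samples. The 3 listed members that were not tested were IFI44, with 1, 0 and 1 counts in the DM samples and none in the GM samples, OAS2, with 3 counts in each DM sample and none in the GM samples, and OASL, with no count in any sample.

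**Figure D1:**
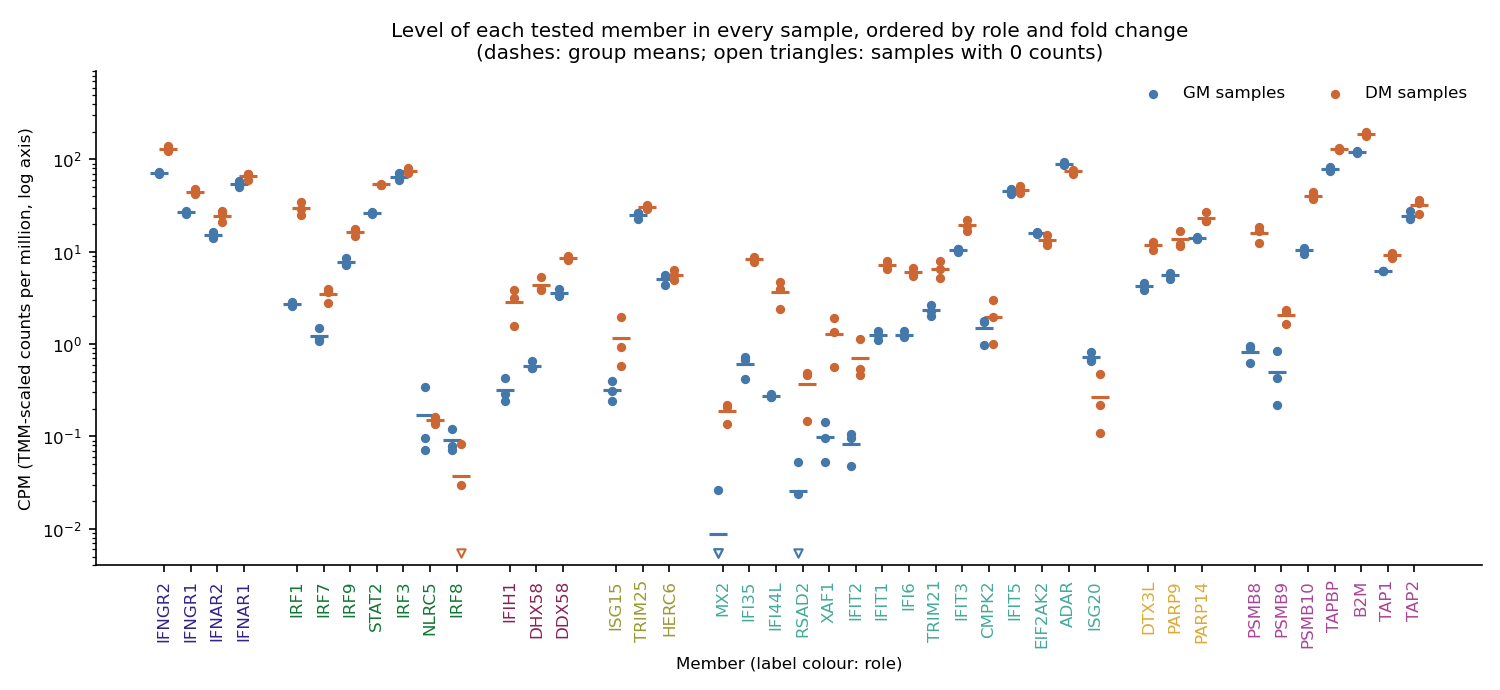
CPM on a log axis for each of the 42 tested members in the 3 GM samples (blue) and the 3 DM samples (orange), from left to right for receptor chains, transcription factors, RNA sensors, the ISG15 system, antiviral effectors, PARP proteins with DTX3L, and antigen presentation. Dashes are group means, and open triangles at the bottom mark samples with 0 counts. PSMB8, IRF1, IFI35 and IFI44L show wide gaps between the groups, while B2M, ADAR and IFIT5 are high in both.

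The members called higher were mostly weakly expressed in proliferating cells. The median of their mean levels was 0.743 RPKM in GM samples and 3.13 RPKM in DM samples, and the lowest, MX2, stood at 0.0607 RPKM even in DM samples. Members that were not called had a median level of 9.53 RPKM in GM samples and 11.6 RPKM in DM samples. A mean of at least 1 RPKM was reached by 24 members in GM samples and 34 in DM samples. Among the 22 calls, 13 were changes of at least 4-fold and 9 of at least 8-fold.

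The receptor chains were present in both states. IFNGR2, the signaling chain of the interferon gamma receptor (chr1:1376827-1397948 in the cattle coordinates of the table), measured 69.2, 71.2 and 73.8 CPM in the GM samples and 140.2, 125.4 and 122.6 CPM in the DM samples. IFNGR1, its ligand-binding chain, measured 26.2, 25.6 and 27.9 CPM against 44.6, 47.7 and 41.8 CPM. Both chains were higher in every DM sample than in any GM sample. Their log2 fold changes were 0.86 ± 0.070 (SE) and 0.75 ± 0.076, with edgeR adjusted p = 1.68e-06 and 9.55e-06, and neither reached the minimum fold change. IFNAR2 and IFNAR1, the type I receptor chains, also did not overlap between groups, with log2 fold changes of 0.68 and 0.30. Thus none of the 4 chains was called, while all 4 were higher in all DM samples. Among all tested genes, 34.5% were likewise higher in every DM sample and 15.0% were called higher. Per length, IFNGR2 was the most abundant chain in both groups, at 80.2 ± 2.54 RPKM in GM samples and 136 ± 7.80 RPKM in DM samples.

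Among 7 transcription factors, IRF1, IRF7, IRF9 and STAT2 rose (57.1%, against 15.0% of all tested genes). IRF1, which is induced by interferon gamma and drives class I and immunoproteasome genes (chr7:23235653-23243697), measured 2.56, 2.74 and 2.82 CPM in the GM samples and 29.0, 25.1 and 34.4 CPM in the DM samples. The groups lay far apart, a 10.9-fold rise with a log2 fold change of 3.44 ± 0.14 (SE; edgeR adjusted p = 1.37e-08). STAT2 (chr5:57318819-57333404), the STAT specific to type I and III interferon signaling, measured 25.7, 26.5 and 26.6 CPM in the GM samples and 54.4, 52.7 and 53.4 CPM in the DM samples. Its replicates were tight and its groups did not overlap, but the log2 fold change of 1.02 ± 0.065 (edgeR adjusted p = 2.70e-07) stood just above the minimum and was 0.93 when samples were scaled by library size alone, which ends the call. IRF9, the DNA-binding partner of STAT2, measured 8.56, 7.31 and 7.09 CPM against 16.8, 14.6 and 17.8 CPM, a log2 fold change of 1.10 ± 0.12 (edgeR adjusted p = 1.71e-05). The RPKM ratio of IRF9 to STAT2 was 0.484 ± 0.0596 in GM samples and 0.508 ± 0.0457 in DM samples, which overlapped (exact two-sided permutation p = 0.5). The log2 difference of the ratio was 0.08, with SDs of 0.17 and 0.13 on that scale.

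IRF7, the factor that amplifies type I interferon genes, measured 1.09, 1.13 and 1.48 CPM in the GM samples and 3.97, 2.76 and 3.68 CPM in the DM samples (log2 fold change 1.49 ± 0.24, edgeR adjusted p = 0.000282). The table places IRF7 over part of DUSP8 on the same strand, so reads of the overlap could belong to either gene. IRF3, which starts interferon transcription after RNA sensing, was high in both groups, at 64.6 ± 5.61 and 74.4 ± 4.97 CPM, and its groups overlapped (log2 fold change 0.21, edgeR adjusted p = 0.0469). IRF8, a myeloid and lymphoid factor, and NLRC5, a transactivator of class I genes, were barely detected. IRF8 averaged 0.0906 CPM in GM samples and 0.0372 CPM in DM samples, and NLRC5 0.170 and 0.149 CPM. A difference in either was not detectable at this depth (edgeR adjusted p = 0.303 and 0.851).

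All 3 cytosolic RNA sensors rose, against 15.0% of all tested genes called higher. IFIH1 (chr2:34217173-34272473), which encodes MDA5 and binds long double-stranded RNA, measured 0.434, 0.240 and 0.290 CPM in the GM samples and 3.82, 3.17 and 1.57 CPM in the DM samples. DM replicate 3 was the lowest of the DM samples but still above every GM sample, and the log2 fold change was 3.13 ± 0.40 (edgeR adjusted p = 5.26e-05). DHX58, which encodes the modulating sensor LGP2, measured 0.555, 0.649 and 0.554 CPM against 5.39, 3.96 and 3.89 CPM, a log2 fold change of 2.90 ± 0.24 (edgeR adjusted p = 2.03e-06). DDX58, which encodes RIG-I, was the most abundant of these sensors in proliferating cells and measured 3.93, 3.32 and 3.402 CPM against 8.32, 8.96 and 8.08 CPM. Its log2 fold change was 1.25 ± 0.14 (edgeR adjusted p = 2.18e-05). Per length, DDX58 stood at 1.25 RPKM in GM samples, DHX58 at 0.232 and IFIH1 at 0.0999, and in DM samples the order was the same, at 2.79, 1.63 and 0.826 RPKM.

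Antiviral effectors were the largest group, with 22 symbols, 18 listed and 15 tested. Of the tested ones, 9 rose (60%, against 15.0% of all tested genes) and 1 fell (6.67%, against 10.3%). The median log2 fold change of this group was 2.24. IFI35 (chr19:43673503-43687259), an interferon-induced protein with leucine zipper and NMI/IFP35 domains, measured 0.675, 0.721 and 0.422 CPM in the GM samples and 8.82, 8.44 and 7.78 CPM in the DM samples. This 13.6-fold rise was far wider than the spread within groups (log2 fold change 3.77 ± 0.22, edgeR adjusted p = 1.37e-07). IFI44L, an interferon-induced gene of little-known function, measured 0.265, 0.264 and 0.290 CPM against 3.91, 4.65 and 2.41 CPM, a log2 fold change of 3.73 ± 0.33 (edgeR adjusted p = 3.02e-06). Its neighbor IFI44, which lies on the same strand of chromosome 3, had at most 1 count in any sample.

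The IFIT genes, whose proteins bind viral RNA, lie side by side on chromosome 26 in the order IFIT2, IFIT3, IFIT1 and IFIT5 within 57.5 kb, all on the plus strand. IFIT1 measured 1.25, 1.39 and 1.11 CPM in the GM samples and 6.54, 7.13 and 7.86 CPM in the DM samples, a log2 fold change of 2.52 ± 0.18 (edgeR adjusted p = 6.51e-07). IFIT2 measured 0.0964, 0.0481 and 0.105 CPM against 0.533, 0.465 and 1.14 CPM, a log2 fold change of 3.05 ± 0.59 (edgeR adjusted p = 0.000966). IFIT3 measured 10.8, 10.7 and 9.86 CPM against 19.0, 16.7 and 22.2 CPM, and its log2 fold change of 0.88 ± 0.12 (edgeR adjusted p = 7.09e-05) missed the minimum although the groups did not overlap. IFIT5, the most abundant of these genes at 45.5 ± 2.72 CPM in GM samples and 47.0 ± 3.95 CPM in DM samples, overlapped between groups (log2 fold change 0.05, edgeR adjusted p = 0.631). Within this cluster the fold change was therefore large in the genes with few counts in GM samples and small in those with many. IFIT genes resemble each other in sequence, and how reads shared between them were counted is not given in the sources used here.

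XAF1, which encodes a binding partner of the apoptosis inhibitor XIAP, measured 0.145, 0.0961 and 0.0527 CPM in the GM samples and 1.92, 1.37 and 0.568 CPM in the DM samples. Its log2 fold change of 3.65 ± 0.58 (edgeR adjusted p = 0.000256) was 4.02 without DM replicate 3. IFI6, a mitochondrial antiviral and anti-apoptotic protein, measured 1.40, 1.18 and 1.21 CPM against 5.42, 6.67 and 5.89 CPM, and TRIM21, a cytosolic antibody receptor and ubiquitin ligase, averaged 2.31 ± 0.320 CPM against 6.56 ± 1.39 CPM. Both rose with no overlap, by log2 fold changes of 2.24 ± 0.19 and 1.5005 ± 0.20 (edgeR adjusted p = 1.97e-06 and 7.88e-05).

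MX2 and RSAD2 were at the limit of detection in proliferating cells. MX2, a dynamin-like GTPase of the interferon response, had 0, 0 and 1 counts in the GM samples and 7, 5 and 8 counts in the DM samples. The ratio of summed counts, scaled by library, was 22.5, with a 95% exact counting interval of 3.60 to 934. RSAD2, which encodes viperin, had 0, 1 and 2 counts against 5, 17 and 18 counts, a ratio of 15.0 with an interval of 4.78 to 75.9. GM replicate 3 held 1 of 1 and 2 of 3 of these GM counts. Both were called (edgeR adjusted p = 0.00539 and 0.00334), both entered the test through the DM samples, and these intervals cover counting error only. CMPK2, a mitochondrial nucleotide kinase that lies next to RSAD2 on chromosome 11, overlapped between groups at 1.503 ± 0.446 and 1.99 ± 1.003 CPM (edgeR adjusted p = 0.389).

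ISG20, an interferon-induced RNA exonuclease, was the 1 member that fell. It measured 0.651, 0.817 and 0.686 CPM in the GM samples and 0.474, 0.219 and 0.108 CPM in the DM samples. The groups did not overlap and the log2 fold change was -1.43 ± 0.51 (edgeR adjusted p = 0.0296), but the call was lost without any 1 of the samples other than DM replicate 1, with edgeR adjusted p from 0.0514 to 0.0919. Without DM replicate 1 the log2 fold change was -2.11. EIF2AK2, which encodes the RNA-dependent kinase PKR, and ADAR, the adenosine deaminase that edits double-stranded RNA, were likewise lower in every DM sample than in any GM sample. EIF2AK2 averaged 16.01 ± 0.367 and 13.5 ± 1.69 CPM (log2 fold change -0.25, edgeR adjusted p = 0.0673), and ADAR 89.9 ± 3.50 and 74.0 ± 4.06 CPM (log2 fold change -0.28, edgeR adjusted p = 0.00390). Neither reached the minimum fold change.

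ISG15 (chr16:52714627-52715665), a ubiquitin-like protein that is attached to other proteins during the interferon response, measured 0.313, 0.240 and 0.396 CPM in the GM samples and 0.918, 0.574 and 1.97 CPM in the DM samples. It rose with no overlap (log2 fold change 1.86 ± 0.50, edgeR adjusted p = 0.00715), and DM replicate 3 stood at 2.65 times the mean of the other DM samples. Without that sample the log2 fold change was 1.24 (edgeR adjusted p = 0.0249). HERC6, an ISG15 ligase in mice, and TRIM25, a ligase that acts on RIG-I, were not called, with log2 fold changes of 0.15 and 0.28. ISG15 thus remained a weakly expressed gene in these cultures, at 1.85 ± 1.17 RPKM in DM samples.

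PARP9 and DTX3L form a complex of an ADP-ribosyltransferase and a ubiquitin ligase and lie head to head on chromosome 1, with PARP14, another ADP-ribosyltransferase, downstream of DTX3L. PARP9 measured 5.88, 5.65 and 5.09 CPM in the GM samples and 11.7, 12.3 and 16.8 CPM in the DM samples. DTX3L measured 4.56, 3.87 and 4.25 CPM against 10.4, 12.7 and 12.1 CPM. Both rose with no overlap, with log2 fold changes of 1.29 ± 0.16 and 1.48 ± 0.14 (edgeR adjusted p = 3.53e-05 and 4.31e-06). The RPKM ratio of DTX3L to PARP9 was 0.963 ± 0.0945 and 1.11 ± 0.201 in GM and DM samples, which overlapped (exact two-sided permutation p = 0.4). PARP14 was higher in every DM sample, at 14.0 ± 0.550 against 23.4 ± 3.31 CPM, but its log2 fold change of 0.74 was under the minimum. The intervals of PARP9 and DTX3L overlap on opposite strands, so without strand their shared reads cannot be told apart.

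**Figure D2:**
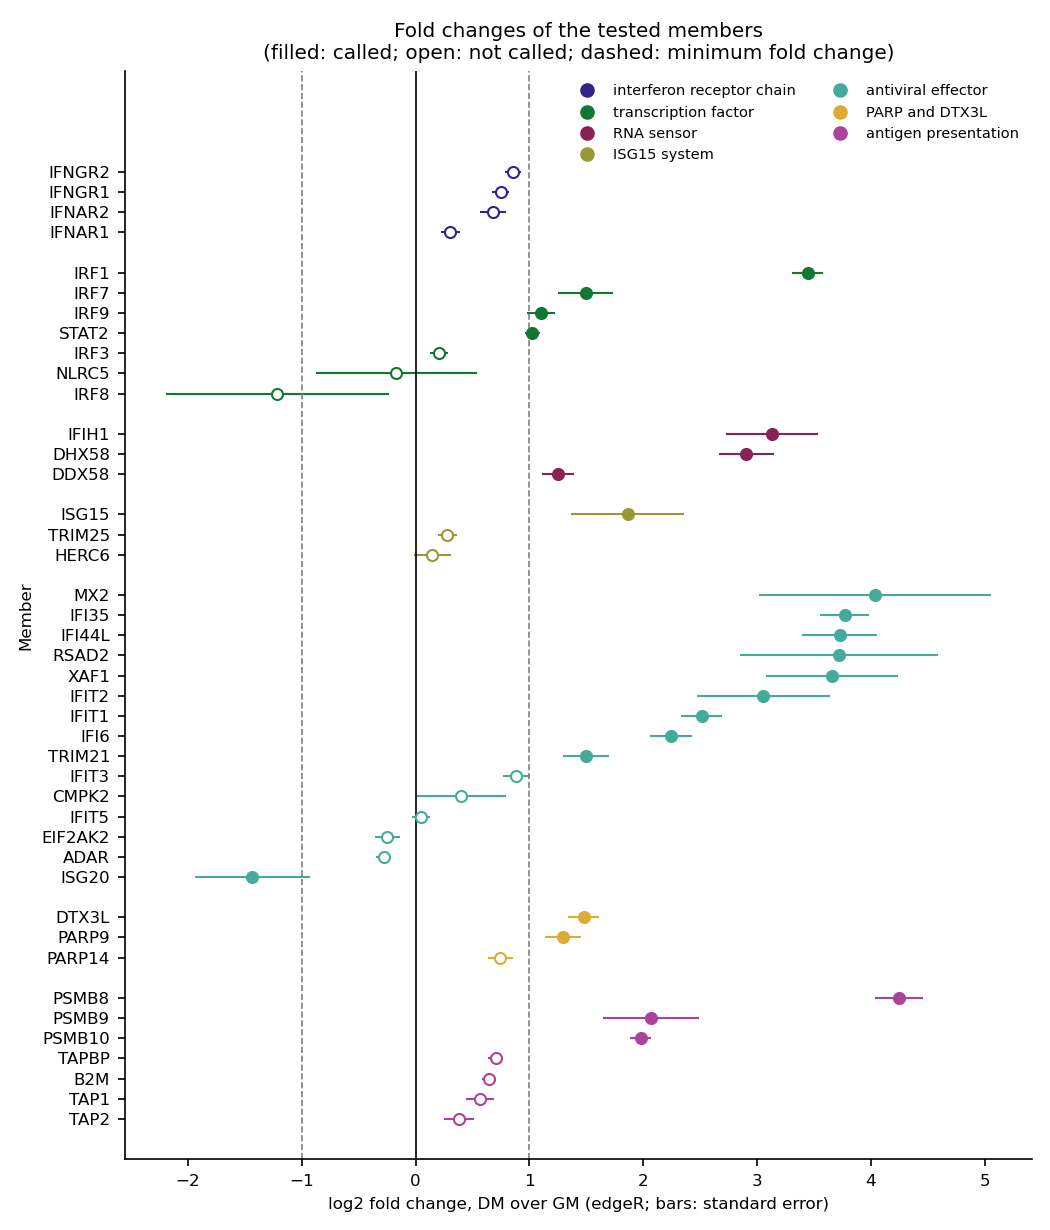
Log2 fold change of each tested member, DM over GM samples, with its standard error, grouped by role. Filled points were called and open points were not, and dashed lines mark the minimum absolute log2 fold change of 1. The 22 members called higher run from 1.02 (STAT2) to 4.25 (PSMB8), and ISG20 at -1.43 is the only filled point on the left.

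In antigen presentation, the 3 inducible proteasome subunits rose (42.9% of this group, against 15.0% of all tested genes). B2M, TAP1, TAP2 and TAPBP changed by less than the minimum. PSMB8 (chr23:7113304-7116676), which cleaves after hydrophobic residues in the immunoproteasome, measured 0.627, 0.913 and 0.949 CPM in the GM samples and 18.3, 16.7 and 12.3 CPM in the DM samples. This was the largest fitted fold change among all tested members, 19.0-fold, with a log2 value of 4.25 ± 0.21 (edgeR adjusted p = 5.77e-08). PSMB9 measured 0.217, 0.433 and 0.844 CPM against 2.25, 2.35 and 1.65 CPM, a log2 fold change of 2.07 ± 0.42 (edgeR adjusted p = 0.00142), which was 2.67 without GM replicate 3. PSMB10 measured 9.52, 10.6 and 10.9 CPM against 40.8, 36.8 and 44.1 CPM, a log2 fold change of 1.98 ± 0.094 (edgeR adjusted p = 4.00e-08). No GM sample reached a DM sample for any of the 3 subunits.

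Each inducible subunit replaces a constitutive one in the proteasome, PSMB8 taking the place of PSMB5, PSMB9 of PSMB6 and PSMB10 of PSMB7. The constitutive subunits were lower in DM samples, with log2 fold changes of -0.59, -0.48 and -0.71, none of them called. Per length, PSMB8 stood at 0.586% of PSMB5 in GM samples and 17.02% in DM samples. PSMB9 stood at 0.432% of PSMB6 and then 2.53%, and PSMB10 at 6.50% of PSMB7 and then 41.9%. The constitutive transcripts thus stayed in excess of all 3 inducible ones in both groups. None of these ratios overlapped between groups, and each gave an exact two-sided permutation p = 0.1, the smallest possible with groups of 3 (0.129 when adjusted over the 9 ratios by the Benjamini-Hochberg method).

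**Figure D3:**
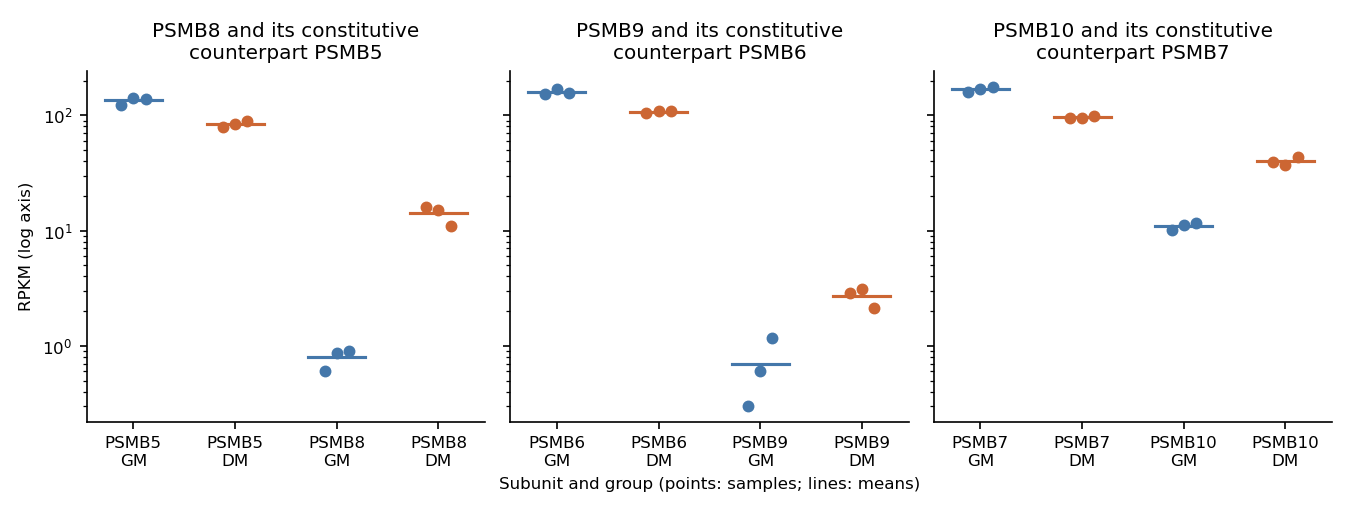
RPKM on a log axis of each inducible proteasome subunit and its constitutive counterpart in the 3 GM samples (blue) and the 3 DM samples (orange), with lines at the means. PSMB8 moved from 0.794 to 14.1 RPKM, PSMB9 from 0.691 to 2.70 and PSMB10 from 10.9 to 40.2, and all constitutive subunits lie above them.

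TAP1 and TAP2 encode the transporter that brings peptides into the endoplasmic reticulum, and their genes alternate with the proteasome genes on chromosome 23. TAP2, PSMB8, TAP1 and PSMB9 lie in this order within 53.9 kb (chr23:7079669-7133608), and TAP1 and PSMB9 are transcribed away from each other with 256 bases between them. TAP1 measured 6.15, 6.15 and 6.22 CPM in the GM samples and 9.59, 9.43 and 8.46 CPM in the DM samples, a log2 fold change of 0.57 ± 0.12 (edgeR adjusted p = 0.00196). The RPKM ratio of PSMB9 to TAP1 went from 0.321 ± 0.203 to 0.903 ± 0.112, and that of PSMB8 to TAP1 from 0.369 ± 0.0772 to 4.71 ± 0.639, neither with overlap (exact two-sided permutation p = 0.1 each). TAP2 averaged 24.6 ± 2.74 and 32.1 ± 5.56 CPM, with overlapping groups (log2 fold change 0.38, edgeR adjusted p = 0.0236), and part of it is shared with another gene model on the same strand.

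B2M, the invariant light chain of class I molecules, was the most abundant member in both groups. It measured 116, 123 and 121 CPM in the GM samples and 196, 187 and 180.1 CPM in the DM samples, with a log2 fold change of 0.64 ± 0.060 (edgeR adjusted p = 4.87e-06). TAPBP, the tapasin bridge between the transporter and class I, measured 75.3, 78.8 and 83.6 CPM against 134, 126 and 127 CPM (log2 fold change 0.70 ± 0.065, edgeR adjusted p = 4.12e-06). Both were higher in all DM samples than in any GM sample and neither reached the minimum fold change.

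Genes of the same pathways outside the list were examined next, from 129 further symbols of which 90 were listed and 82 tested. Of these, 31 (37.8%) were called higher, against 15.0% of all tested genes, and 4 (4.88%) lower, against 10.3%. Their median log2 fold change was 0.63, beside 0.03 for all tested genes, with 58 genes above 0 and 24 below. GM and DM samples did not overlap in 50 genes higher in DM samples (61.0%, against 34.5% of all tested genes) and in 21 lower (25.6%, against 34.3%). None of 9 kinases, STATs and feedback regulators was called. JAK1, JAK2 and TYK2, the receptor-bound kinases, had log2 fold changes of 0.43, 0.25 and 0.34. Of 8 interferon symbols, 3 were listed, and these had too few counts to be tested. IFNG had 0 counts in every sample. IFNK had 1, 1 and 1 counts in the GM samples and 4, 2 and 0 in the DM samples, and IFNE had 4 counts in DM replicate 1 alone. Counts of 3 or fewer per sample were taken as the detection floor, which IFNK and IFNE passed in DM replicate 1 alone. The other interferon symbols of the list were not in the table, so their levels are not known.

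The called genes of the ISG15 system outside the list were UBA7, its activating enzyme, and UBE2L6, its conjugating enzyme. HERC5, tested among the interferon-stimulated genes outside the list, was not called and overlapped between groups (log2 fold change 0.11, edgeR adjusted p = 0.717). UBE2L6 measured 1.81, 2.16 and 2.37 CPM in the GM samples and 16.05, 12.5 and 20.5 CPM in the DM samples, a log2 fold change of 2.95 ± 0.20 (edgeR adjusted p = 4.13e-07). UBA7 averaged 4.59 ± 0.515 and 11.6 ± 1.07 CPM, a log2 fold change of 1.33 ± 0.14 (edgeR adjusted p = 1.07e-05). Among 35 tested interferon-stimulated genes outside the list, 16 rose (45.7%, against 15.0% of all tested genes) and TRIM56 and TREX1 fell (5.71%, against 10.3%). The call of TRIM56, at a log2 fold change of -1.04, was lost without GM replicate 2 (-0.99) or DM replicate 1 (-0.97). PARP10, an ADP-ribosyltransferase, rose from 1.85 ± 0.432 to 16.4 ± 0.821 CPM, and LGALS3BP, a secreted glycoprotein, from 13.8 ± 0.380 to 49.9 ± 4.68 CPM. WARS, the tryptophan tRNA synthetase that interferon gamma induces, was abundant, with 283 ± 7.34 CPM in GM and 718 ± 49.6 CPM in DM samples (log2 fold change 1.34 ± 0.067, edgeR adjusted p = 5.47e-08). SAMD9, an antiviral factor, and CCL5, a chemokine, started from at most 2 counts per GM sample and had 48, 74 and 39 and 32, 45 and 60 counts in the DM samples. Their DM over GM ratios of summed counts, scaled by library, were 90.7 (95% counting interval 24.7 to 755) and 51.5 (17.2 to 253).

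Among 19 tested class I genes outside the list, 8 rose (42.1%, against 15.0% of all tested genes) and CALR fell (5.26%, against 10.3%). This group was split, with a median log2 fold change of 0.25. In every DM sample, 10 genes were higher than in any GM sample (52.6%, against 34.5% of all tested genes). The other 9 were lower in every DM sample (47.4%, against 34.3%). Besides CALR and the constitutive proteasome subunits, the lower genes included CANX and PDIA3, chaperones of class I assembly, and RFX5 and RFXANK, parts of a factor that binds MHC promoters, with log2 fold changes of -0.21, -0.28, -0.49 and -0.22, none of them called. BOLA-A, a cattle class I heavy chain, measured 1.30, 0.961 and 1.13 CPM in the GM samples and 7.67, 7.40 and 6.24 CPM in the DM samples. Another class I gene, JSP.1, had a mean of 0.0731 CPM in GM samples and 0.644 ± 0.499 CPM in DM samples, with DM replicate 3 the highest. It had 7, 1 and 1 counts in the GM samples and so entered the test through the DM samples. Their log2 fold changes were 2.65 ± 0.19 and 3.07 ± 0.81 (edgeR adjusted p = 7.22e-07 and 0.00675). The value of JSP.1 was 4.51 without GM replicate 1 and 2.22 without DM replicate 3. Class I genes are alike and variable, and these are buffalo reads counted on cattle gene models, so the split of reads between them is uncertain. ERAP1 and ERAP2, the peptidases that trim peptides for class I, rose with log2 fold changes of 2.88 ± 0.26 and 1.49 ± 0.11 (edgeR adjusted p = 3.78e-06 and 6.91e-07). TAPBPL, a peptide editor related to tapasin, MR1 and FCGRT, both class I-like molecules, rose with log2 fold changes of 1.74, 1.97 and 1.26.

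PSME2, a subunit of the interferon-inducible proteasome activator, rose with a log2 fold change of 1.20, and its partner PSME1 stood at 0.85, under the minimum. PSME3, which forms another activator, stood at -0.56. The RPKM ratio of PSME2 to PSME3 went from 0.259 ± 0.0254 in GM samples to 0.874 ± 0.0624 in DM samples, without overlap (exact two-sided permutation p = 0.1). CALR, a chaperone with functions well beyond class I assembly, went from 2007, 2051 and 2051 CPM to 1029.8, 1032 and 981 CPM, and its log2 fold change of -1.01 lay at the threshold and was -0.97 without DM replicate 3. Of 15 class II symbols, 4 were listed and 2 tested. CTSS, a lysosomal protease, was called higher (50%, against 15.0% of all tested genes) with a log2 fold change of 1.01. Its value was between 0.88 and 0.93 without GM replicate 2, GM replicate 3 or DM replicate 2. CD74, with 8 counts in the GM samples together and 6 in the DM samples, was not called (log2 fold change -0.23, edgeR adjusted p = 0.879). CIITA and BOLA-DRB3 had too few counts to be tested.

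**Figure D4:**
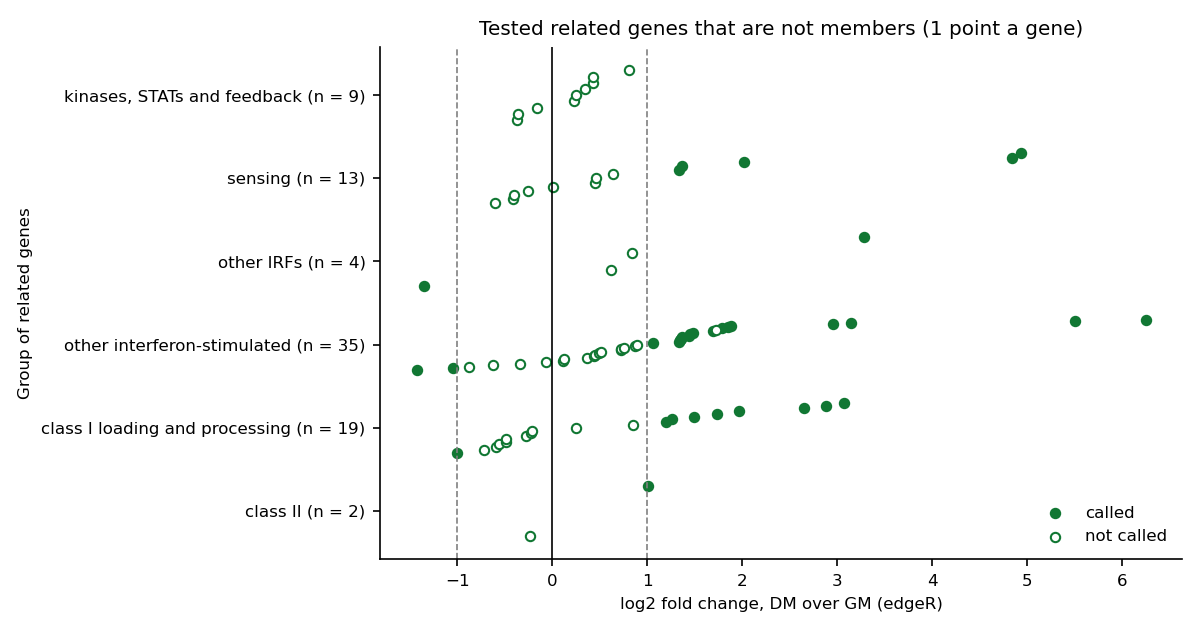
Log2 fold change, DM over GM samples, of the 82 tested pathway genes outside the list, 1 point a gene, by group. Filled points were called, and dashed lines mark the minimum absolute log2 fold change of 1. The 9 kinases, STATs and feedback regulators all lie inside the dashed lines, while 16 interferon-stimulated genes and 8 class I genes are filled points to the right.

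Of 13 tested sensing genes outside the list, 5 rose (38.5%, against 15.0% of all tested genes) and none was called lower. GM and DM samples did not overlap in 8 of the 13 genes with DM samples higher (61.5%, against 34.5% of all tested genes), the 5 called among them. In 3 genes without overlap, DM samples were lower (23.1%, against 34.3%). These 3 included the adaptors MYD88 and TICAM1 at log2 fold changes of -0.25 and -0.41 (edgeR adjusted p = 0.0120 and 0.00363). TLR4, the receptor of bacterial lipopolysaccharide, measured 0.0241, 0.192 and 0.211 CPM in the GM samples and 2.99, 3.55 and 6.68 CPM in the DM samples, a log2 fold change of 4.94 ± 0.52 (edgeR adjusted p = 1.15e-05). TLR3, the endosomal receptor of double-stranded RNA, averaged 0.910 ± 0.238 and 3.72 ± 1.93 CPM (log2 fold change 2.02 ± 0.42, edgeR adjusted p = 0.00153). ZBP1, a sensor of Z-form nucleic acid, had 0, 0 and 3 counts in the GM samples and 29, 40 and 17 in the DM samples, a ratio of 32.3 (95% counting interval 10.7 to 160), with all of its GM counts in GM replicate 3. IKBKE, a kinase that activates IRF factors, and NOD1, a sensor of bacterial peptidoglycan, had log2 fold changes of 1.37 and 1.34.

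At the level of transcripts, the members had 54 listed mRNAs, of which 51 were tested. Of these, 28 were called higher and 2 lower, beside 4184 (25.6%) called in either direction among all 16352 tested transcripts. Shares by direction were not computed for all transcripts, so the 2 directions cannot be compared separately here. TAP1, TAP2, XAF1, TRIM21, ISG20, IRF9 and DHX58 had more than 1 listed transcript, 16 in all, and each of the 16 had the same call as its gene. The authors' transcript counts sum to more than their gene counts in every sample, so transcripts of a gene share reads and are not independent.

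Markers of other cells were measured beside these genes. The 12 macrophage and dendritic cell markers summed to between 7.20 and 9.96 CPM in GM samples and between 8.05 and 15.7 CPM in DM samples, and 8 of them had 10 or more counts in some sample. LYZ was at 0 in every sample and PTPRC, the pan-leukocyte gene, at 0 to 2 counts per sample. Other markers of this list were detected at low levels, among them CSF1R, at 22, 13 and 16 counts in the GM samples and 8, 15 and 6 in the DM samples, and CD163, at 27, 16 and 13 against 51, 34 and 16. Of the 9 that were tested, CD14 rose from 1.09 to 7.40 CPM, CD68 fell from 5.29 to 2.59 CPM and 7 were not called. The 9 lymphocyte markers summed to at most 0.913 CPM, with CD3D, CD4 and NCR1 at 0 in every sample. The 6 endothelial markers summed to between 4.04 and 4.78 CPM in GM samples and between 5.15 and 6.13 CPM in DM samples. The higher sum came from TEK, which rose from 1.47 to 4.197 CPM, while CDH5, VWF and TIE1 fell, with log2 fold changes of -2.24, -1.41 and -2.37, and the median of the list was -1.07. The 6 fibroblast markers summed to between 24826.5 and 25051 CPM in GM samples and between 77006 and 96951 CPM in DM samples. Most of that sum came from COL1A1 (mean 15287 CPM in GM and 44328 CPM in DM samples) and COL3A1 (8298 and 39251 CPM). Of the 6, 5 were called higher, and PDGFRA was not (log2 fold change 0.58). The part of these cell type markers in the members' rise was not tested.

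DM replicate 3 differed from the mean of the other DM samples in several members. It was above 1.5 times their mean in ISG15, IFIT2 and RSAD2, and below their mean divided by 1.5 in IRF8, ISG20, XAF1, CMPK2, IFIH1 and IFI44L. In RSAD2 it was close to DM replicate 2 (0.486 and 0.465 CPM), and DM replicate 1 was the low sample at 0.148 CPM. IRF8 had only 1, 3 and 0 counts in the DM samples. The same comparison was not made for the other DM samples. Deviations of DM replicate 3 ran in both directions among members that were called higher. Without this sample 22 members were called higher, as with it, and the same number was called when any other sample was left out.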

How the data were processed

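Raw counts per gene and per mRNA transcript for 3 GM and 3 DM samples of buffalo MuSCs were deposited by the authors, who aligned polyadenylated RNA reads with HISAT2 and did not normalize the counts. RPKM values deposited by the authors divide these counts by the table's length and by the sample's summed counts. The methods name the buffalo genome, the tables hold cattle Ensembl identifiers and no build, and the submitters' processing notes list Bowtie 0.12.2 and the mouse builds mm8 and mm9, which match neither, so coordinates are given as in the tables. The counting tool and its use of strand are not given in the sources used here. Counts on cattle models can miss diverged or duplicated buffalo genes. The authors' lists of differentially expressed features hold their fold changes and p-values and were not used, nor were the ncRNA tables.

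Gene counts were 35615864 to 40305237 per sample, with TMM factors of 1.03 to 1.04 in GM and 0.948 to 0.983 in DM samples. Genes with at least 10 counts in total were tested with edgeR 4.0.16 in R 4.3.3 (quasi-likelihood, TMM, Benjamini-Hochberg adjustment over all tested genes). Standard errors come from the F statistic. Ratios of RPKM were compared with exact permutation tests, and ratios of low counts have exact binomial 95% intervals. Python 3.11.15, pandas 2.3.3, numpy 2.4.6, scipy 1.17.1 and matplotlib 3.10.9 were used, and the fit was tested on simulated data. Every listed member may be named. Of the other pathway genes, those called were eligible to be named, with the JAK kinases and the constitutive proteasome subunits. Interferon genes, CIITA, BOLA-DRB3, CD74, PSME1, PSME3, CANX, PDIA3, RFX5, RFXANK, MYD88, TICAM1, HERC5, LYZ, PTPRC, CD3D, CD4 and NCR1 were picked once their values were known. The members and lists were chosen with earlier results of these data known. Alternatives were DESeq2 1.42.0, other scalings and filters, no minimum fold change, a replicate block, 1 transcript per gene and each sample left out. Same-numbered GM and DM samples did not deviate together, so the numbers were not taken as pairs. Some genes of the pathway are not reported here. No sequence is shown, since no genome of the tables' build was used here.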

Additional observations from a re-analysis of the deposited data

How the results depend on the processing

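The number of members called higher was 22 with DESeq2, with DESeq2's size factors and in the replicate block, and 20 to 23 under library size alone, no filter, filterByExpr and 1 transcript per gene. It was 10 when genes had to reach 1 RPKM in over 50% of the samples, the paper's rule for reliably expressed genes. A gene under 1 RPKM in all GM samples cannot pass that rule, whatever its DM level. Called members left out in this way included IRF1 (mean 0.921 RPKM in GM and 9.37 RPKM in DM samples), PSMB8 (0.794 and 14.1) and IFI35 (0.534 and 6.87). The number was 12 with a mean of at least 100 counts, an alternative chosen after seeing the data. These settings tested fewer genes, 27 and 28 members. The number was 34 with no minimum fold change. Members called lower were 0, 0 and 2 under these 3 settings and 0 to 1 with 1 sample left out. All genes called were 2197, 2363 and 9813, the related genes called higher 20, 20 and 48, and those called lower 0, 0 and 20, or 2 to 4 with 1 sample left out. The members' median log2 fold change was 0.80 under the RPKM rule, 0.85 with a mean of at least 100 counts, 1.17 with no filter and 0.96 with library size alone, where the median of all genes was -0.07. Of 23 called members, 21 kept their call in every alternative that gave a value, and the exceptions were STAT2 and ISG20. Directions turned only in members that were not called. With 1 sample left out, NLRC5 ranged from -0.53 (without GM replicate 2) to 0.80 (without GM replicate 3), IFIT5 from -0.0011 (without DM replicate 2) to 0.11 (without DM replicate 1) and CMPK2 from -0.013 (without DM replicate 2) to 0.73 (without DM replicate 3). IFIT5 was -0.048 with library size alone. Among related genes, IRF5, TRIM56, CXCL9, CALR and CTSS lost their calls in some alternatives. The replicate block called 3837 genes in all, 22 members higher, 1 member lower and 3 related genes lower in place of 4, the one lost being IRF5 (edgeR adjusted p = 0.0562). Same-numbered samples had correlations of deviations of -0.0076, -0.0218 and -0.0105. Beyond what the RPKM rule leaves out by definition, the causes of these shifts were not tested. Depth limits the members with few counts: for MX2, RSAD2, OAS2, IFI44, IRF8 and NLRC5 only large differences could be seen.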

Other observations

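A class II gene outside the lists, LA-DQB, which encodes the beta chain of a molecule that presents peptides to CD4 T cells, was singled out after its values were seen. It had 3, 3 and 7 counts in the GM samples and 5, 11 and 736 counts in the DM samples, so that nearly all of its counts came from DM replicate 3. CIITA, the master regulator of class II genes, had 0, 5 and 2 counts in the DM samples, and BOLA-DRB3 had 0, 0 and 2. The counts of LA-DQB in DM replicates 1 and 2 were close to those of GM replicate 3.

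IRF5, a factor downstream of Toll-like receptors, was called lower, with 0.503 ± 0.158 CPM in GM and 0.196 ± 0.0299 CPM in DM samples (SD, n = 3 each; edgeR adjusted p = 0.0280), a call that was lost with DESeq2 (adjusted p = 0.0789), in the replicate block, and when any 1 of the samples other than GM replicate 1 was left out. CCL2, a monocyte chemokine, rose from 7.29 ± 0.650 to 25.1 ± 0.703 CPM. OAS1X, of the OAS family of antiviral enzymes, rose from 0.188 ± 0.0490 to 0.708 ± 0.00453 CPM.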
